A study of Homo sapiens with 6 samples.

Results

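The genes described here encode the proteins of the cytosolic ribosome. They were taken by name and biotype, as protein-coding genes called *RPL*, *RPS* or *RPLP* with a number, plus *RPSA*, and this gave 77 of the 57905 genes in the count table, with 31 for the small and 46 for the large subunit. They are scattered over the genome, with 12 on chromosome 19 and 7 on chromosome 3. Poly(A) RNA was sequenced from RT4 cells, an established human bladder cancer line of non-muscle invasive type and wild-type genotype by its label. Cells were transfected for 48 h with 100 pmol of either a universal negative control siRNA (Scramble, 3 libraries) or an siRNA against the spliced *MIR205HG* transcript named *LEADR* (LEADR-KD, 3 libraries). Each arm used 1 siRNA in 1 cell line, and the study's methods call its sequenced replicates biological, while the labels do not say whether the libraries of an arm were separate cultures. All p-values rest on the spread among the 3 libraries of each arm. The comparison addressed whether the transcripts of the ribosome changed in *LEADR*-depleted cells, and whether small and large subunit genes differed in this.

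A ribosome joins a small subunit, which holds the mRNA and reads its codons, to a large subunit, which forms the peptide bonds and releases the growing chain through a tunnel. Ribosomal proteins are made in the cytoplasm, imported into the nucleus and assembled on ribosomal RNA in the nucleolus, so that the cell needs them in about equal amounts. Most of their mRNAs begin with a run of pyrimidines, the terminal oligopyrimidine (TOP) tract, through which mTOR and the protein LARP1 set their translation and stability.

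The libraries held 15706033 to 18960822 counts. *MIR205HG*, the targeted gene, fell in LEADR-KD. Its counts were 511, 337 and 346 in Scramble 1 to 3 and 113, 211 and 101 in LEADR-KD 1 to 3, with no overlap, a log2 fold change of -1.47 (SE 0.26) and an adjusted p of 0.00180 by edgeR. The first library of each arm stood apart in its mitochondrial transcripts, which took 11.9% of the counts of Scramble 1 and 10.8% of LEADR-KD 1 against 3.06% to 5.73% in the other libraries. Of 14 urothelial markers 13 passed the filter on low counts, and their summed level was 6801 to 7488 CPM (counts scaled to library size) in Scramble and 7697 to 8276 CPM in LEADR-KD. Of the 9 fibroblast markers 2 passed, *COL3A1* and *COL1A1*, with a summed level of 26.4 to 32.1 CPM in Scramble and 18.4 to 25.5 CPM in LEADR-KD, and *DCN*, *PDGFRA*, *PDGFRB*, *COL1A2*, *THY1* and *FAP* were at 0 counts in every library. None of the 9 leukocyte markers passed and 5 of them were at 0. The part of these markers in the results was not tested.

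The sequences around the start of 7 ribosomal protein genes are shown because they carry the TOP tract that most members share, or lack it at the annotated start shown. They come from RefSeq on GRCh38.p14, read 5′ to 3′ on the strand of the gene, with 15 bases on each side of the annotated start and a run of at least 5 bases of C and T over the start in capitals. *RPLP0* lies at chr12:120201097-120201126 on the minus strand, *RPSA* at chr3:39406705-39406734 on the plus strand and *RPS19* at chr19:41860240-41860269 on the plus strand. *RPL10* lies at chrX:154398362-154398391 and *RPL15* at chr3:23916530-23916559, both on the plus strand, and *RPS25* at chr11:119018329-119018358 and *RPL9* at chr4:39458908-39458937, both on the minus strand. For *RPL10*, *RPL15* and *RPS19*, which have 3, 3 and 2 annotated starts, 1 start is shown. It was chosen as the start with the longest run of C and T from that base onward.
RPLP0: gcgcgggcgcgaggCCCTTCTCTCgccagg
RPSA: tttcctgccgcctgTCTTTTCCgtgctacc
RPS19: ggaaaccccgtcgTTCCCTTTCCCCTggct
RPL10: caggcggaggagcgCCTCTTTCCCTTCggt
RPS25: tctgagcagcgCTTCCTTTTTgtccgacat
RPL15: ggcgctggggcctgctggaggagcttcacg
RPL9: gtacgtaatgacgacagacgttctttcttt
The run over the start was 10 bases in *RPLP0*, 8 in *RPSA*, 13 in *RPS19* and *RPL10* and 10 in *RPS25*. It was 2 bases in *RPL15* and absent in *RPL9*, whose window ends in a run of C and T past the start. Counted over every gene with an entry, a tract that began with C at an annotated start and ran on to at least 5 bases of C or T was present in 46 of 62 ribosomal protein genes (74.2%), in 18 of 24 for the small and 28 of 38 for the large subunit. The same letters were present in 7.35% of the 9586 tested genes with an entry. Counted per annotated start, the shares were 59.7% for the members and 5.13% for tested genes. The other 15 members, with *RPL23A* among them, had no entry. An annotated start can lie some bases away from the start used in RT4 cells. A start without the tract therefore says only that these letters are not at that position.

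Ribosomal protein mRNAs were abundant but not equal. In FPKM, which divides counts by gene length and by depth, the mean over the 6 libraries ran from 0.552 to 931 with a median of 190 (209 for the small and 147 for the large subunit genes). The annotated gene length ran from 767 bases in *RPS12* to 8153 in *RPL37*, and FPKM ranks between genes depend on it. In Scramble these 2 genes had 431 and 311 CPM but 557 and 37.7 FPKM. Among the highest small subunit levels were those of *RPS12* (557 ± 48.1 FPKM in Scramble and 585 ± 66.9 in LEADR-KD, SD, n = 3 each), *RPS2* (482 ± 40.8 and 499 ± 53.6) and *RPS18* (422 ± 68.3 and 418 ± 75.3). In the large subunit they were *RPL13A* (916 ± 91.7 and 945 ± 147 FPKM), *RPLP0*, the base of the stalk that recruits translation factors (795 ± 96.6 and 841 ± 162), *RPL41*, which encodes the shortest ribosomal protein (799 ± 55.5 and 720 ± 47.4), and *RPL8*, whose product lies by the peptidyl transferase centre (584 ± 38.3 and 622 ± 45.1). Over the 6 libraries *RPS12*, *RPS2* and *RPS18* overlapped in turn. *RPL13A*, *RPLP0* and *RPL41* overlapped as well, and *RPL8* lay below them in every library. None of these 7 genes passed the test between groups.

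At the other end, *RPS15A* (12.3 ± 2.46 FPKM in Scramble and 12.8 ± 2.29 in LEADR-KD) and *RPS10* (1.59 ± 0.355 and 1.62 ± 0.285) were among the lowest in the small subunit. *RPL26* (11.4 ± 1.18 and 10.5 ± 0.217 FPKM), *RPL17* (5.02 ± 0.492 and 5.30 ± 0.755) and *RPL36A* (0.542 ± 0.284 and 0.562 ± 0.196) were lowest in the large subunit. All 5 encode proteins present once per ribosome, and all 5 overlap another coding gene in the annotation. Such overlap was also found for *RPS13*, *RPL36* and *RPS29*, which had higher mean levels (166, 76.0 and 65.1 FPKM). *RPS10*, *RPL17*, *RPL36A*, *RPL26* and *RPS15A* each share exons or span with a second coding gene on the same strand, such as the readthrough genes *RPS10-NUDT3*, *RPL17-C18orf32* and *RPL36A-HNRNPH2*, which held 0, 1 and 6 counts over all libraries. How such shared reads were counted was not tested, so the levels of these 5 are uncertain. Only *RPS10* and *RPL36A*, with mean counts of 46.5 and 38.2, lay under 100 counts.

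Between the groups, 2 ribosomal protein genes rose, 2 fell and 73 of 77 did not pass the test. *RPL23A* rose 1.54-fold and *RPL10* by 0.32 on the log2 scale and *RPL15* fell to 0.753 of its Scramble level. Without Scramble 2 none of the 77 genes fell and 1 rose. The 4 called genes were 5.19% of the members, against 24.4% of all 14178 tested genes (12.2% higher and 12.1% lower) at an adjusted p under 0.05 in edgeR's quasi-likelihood test. All 77 members passed the filter on low counts. Under library totals without further scaling the split was 1 higher and 4 lower, and with library size set to the summed ribosomal protein counts it was 1 and 2. In these bulk libraries, fewer cells of a kind and less RNA per cell cannot be told apart.

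The size of the differences was small in most members. The median log2 fold change (LEADR-KD over Scramble) was 0.06 with a middle range of -0.01 to 0.10, beside -0.01 and -0.28 to 0.22 for all tested genes. Differences lay within ± 0.2 on the log2 scale in 68 of 77 members (88.3%) and in 42.3% of all tested genes, at a median SE of 0.12 and 0.13. The 95% interval of the difference lay within ± 0.5, a 1.41-fold change, for 67 members, 25 of 31 in the small and 42 of 46 in the large subunit. Among the 10 with a wider or shifted interval were *RPL10*, *RPL15*, *RPL23A*, *RPL36A*, *RPS3A*, *RPS10*, *RPS21* and *RPSA*. All 3 LEADR-KD libraries lay above all 3 Scramble libraries in 4 members (*RPL23A*, *RPL10*, *RPSA* and *RPS28*) and below them in *RPL15*, while 19.9% of all tested genes lay above and 19.9% below.

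**Figure D1:**
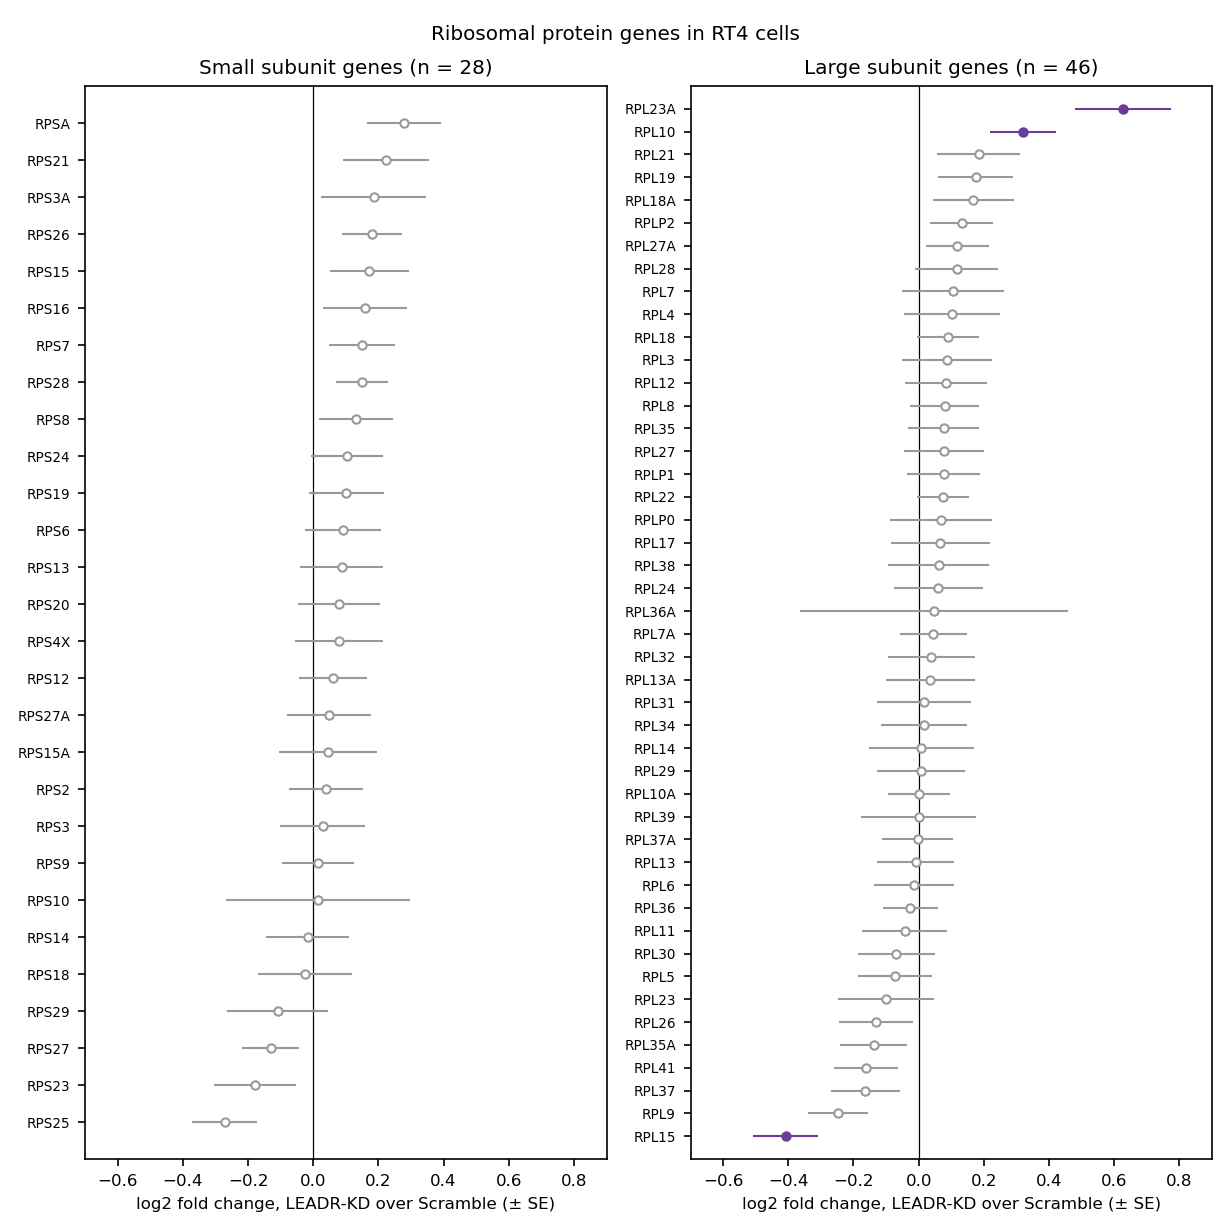
Log2 fold change of LEADR-KD over Scramble for 28 small and 46 large subunit genes, ordered by value, where bars show the SE and filled points passed edgeR's test. Most points lie within 0.2 of 0. *RPL23A* and *RPL10* stand to the right and *RPL15* to the left.

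In the large subunit 2 of 46 genes rose and 1 fell, with a median log2 fold change of 0.05, 31 positive and 15 negative values and 42 within ± 0.2. *RPL23A* (chr17:27046411-27051377, plus strand, hg19) encodes a protein at the mouth of the exit tunnel, where factors that sort new chains dock. Its levels were 289, 256 and 183 CPM in Scramble 1 to 3 and 428, 346 and 349 CPM in LEADR-KD 1 to 3. The lowest LEADR-KD library lay above the highest Scramble library. The log2 fold change was 0.63 (SE 0.15, adjusted p = 0.0100 by edgeR), and the gene passed under all 17 alternatives tried, with an adjusted p of 0.00492 to 0.0270 when 1 library was left out. *TLCD1*, which overlaps it on the other strand, had 3.39% of its mean count.

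*RPL10* (chrX:153618315-153637504, plus strand) encodes one of the last proteins to join the large subunit, whose loading goes with release of the export adaptor NMD3. It had 793, 824 and 720 CPM in Scramble and 1056, 949 and 915 CPM in LEADR-KD, also without overlap. The log2 fold change was 0.32 (SE 0.10, adjusted p = 0.0386 by edgeR), and the margin was thin. Leaving out any 1 of the 6 libraries ended the call (adjusted p 0.0548 to 0.129), as did library totals alone (0.0682), omission of both libraries numbered 1 (0.0930) and scaling to the summed ribosomal protein counts (a log2 fold change of 0.27, adjusted p 0.183).

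*RPL15* (chr3:23958036-23965183, plus strand), which encodes a core protein of the large subunit and is among the genes mutated in Diamond-Blackfan anaemia, fell without overlap between the groups. Its levels were 1070, 1105 and 994 CPM in Scramble and 852, 736 and 800 CPM in LEADR-KD. The log2 fold change was -0.41 (SE 0.10, adjusted p = 0.0117 by edgeR) and -0.46 (adjusted p 0.0222) relative to the summed ribosomal protein counts. The call was lost without Scramble 2 (adjusted p 0.0511 by edgeR) and without LEADR-KD 2 (0.0601). *NKIRAS1* on the other strand had 1.13% of its mean count, and *RPL15P3*, a processed copy, is described among the pseudogenes at the end.

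**Figure D2:**
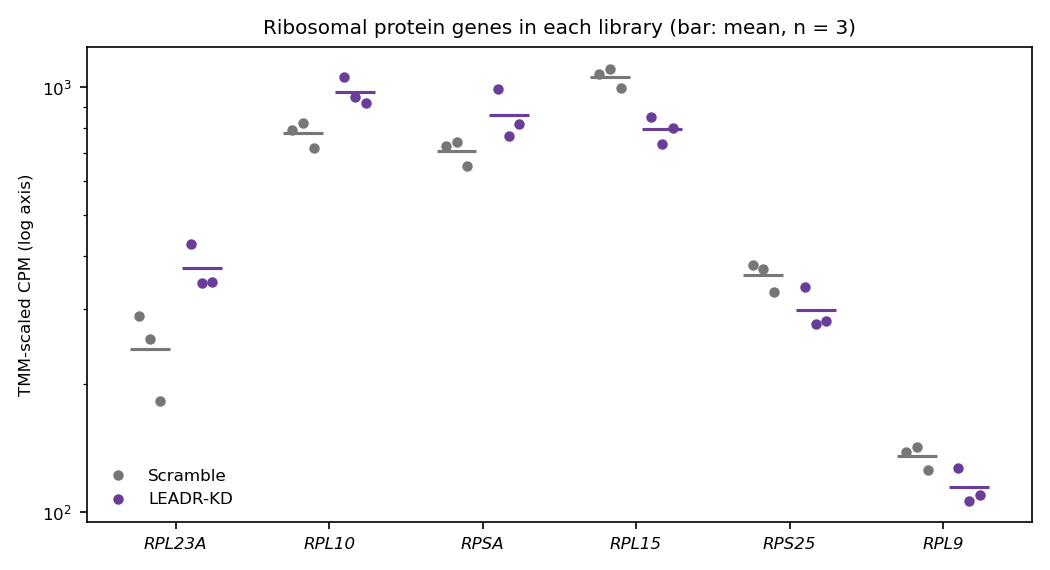
Level of 6 ribosomal protein genes in each library, in CPM scaled by TMM on a log axis, with grey points for Scramble, purple points for LEADR-KD and bars for the group means (n = 3). The groups do not overlap for *RPL23A*, *RPL10*, *RPSA* and *RPL15*, and they overlap for *RPS25* and *RPL9*.

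In the small subunit none of 31 genes rose and 1 fell, with a median log2 fold change of 0.08, 23 positive and 8 negative values and 26 within ± 0.2. The count that fell was 0 without Scramble 2, LEADR-KD 2 or LEADR-KD 3, with limma on FPKM and with DESeq2. DESeq2 left 1 member called by edgeR without an adjusted p. The count that fell did not exceed 2 under any of the 17 alternatives. The count that rose was 0 in most of them and 2 at most, with the replicate number as a block.

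Among the members that did not pass, those nearest the threshold were named after their values were seen. *RPSA*, which encodes a small subunit protein also known as the laminin receptor, had 728, 741 and 654 CPM in Scramble and 990, 766 and 818 CPM in LEADR-KD, with a log2 difference of 0.28 (SE 0.11, adjusted p = 0.0986 by edgeR), which was 0.17 (adjusted p 0.300) without LEADR-KD 1. *RPS25*, needed for translation from several viral internal ribosome entry sites, had 382, 373 and 329 CPM against 338, 277 and 282 CPM, a difference of -0.27 (SE 0.10, adjusted p = 0.0679 by edgeR). *RPL9* had 139, 143 and 126 CPM against 127, 106 and 110 CPM, a difference of -0.25 (SE 0.09, adjusted p = 0.0740 by edgeR). For the last pair LEADR-KD 1 lay within the range of Scramble, and without LEADR-KD 1 both passed (adjusted p 0.0177 and 0.0267 by edgeR). Without Scramble 3 *RPS25* passed (0.0473) and *RPL9* did not (0.0623). Omission of Scramble 1 or 2 or of LEADR-KD 2 or 3 moved both away from the threshold. The adjusted p was then 0.175 to 0.229 for *RPS25* and 0.155 to 0.246 for *RPL9* by edgeR. *RPS28* was above Scramble in every LEADR-KD library (206, 209 and 202 CPM against 233, 211 and 240 CPM), with a difference of 0.15 (SE 0.08, adjusted p = 0.202 by edgeR).

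Several members with roles beyond the ribosome were close to 0 on the log2 scale, while *RPSA* differed by 0.28 (SE 0.11). *RPL5* and *RPL11*, which bind MDM2 and stabilise p53 when ribosome assembly fails, differed by -0.07 (SE 0.11) and -0.04 (SE 0.13). *RPS6*, the substrate of S6 kinase downstream of mTOR, differed by 0.09 (SE 0.12). *RPL13A*, which in myeloid cells treated with interferon leaves the ribosome to silence inflammatory mRNAs, had 2355, 2272 and 1945 CPM in Scramble and 2638, 2020 and 2076 CPM in LEADR-KD, a difference of 0.04 (SE 0.14). The values overlapped between the groups, and the interval ran from -0.26 to 0.33.

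*RPS14* and *RPS19*, whose loss of 1 copy causes the anaemia of the deleted long arm of chromosome 5 and Diamond-Blackfan anaemia, differed by -0.02 (SE 0.13) and 0.10 (SE 0.12). *RPS27A*, made as a fusion with ubiquitin, differed by 0.05 (SE 0.13), and *RPL22*, an RNA-binding protein that is dispensable for growth in many cells, by 0.08 (SE 0.08). The stalk genes *RPLP0*, *RPLP1* and *RPLP2* differed by 0.07 (SE 0.16), 0.08 (SE 0.11) and 0.13 (SE 0.10). *RPLP0*, often used to normalise RT-qPCR, had 3464, 3408 and 2769 CPM in Scramble and 4109, 3022 and 2985 CPM in LEADR-KD. Its highest and lowest library were LEADR-KD 1 and Scramble 3. Leaving *RPLP1* and *RPLP2* aside, none of these 9 genes passed under any of the 17 alternatives.

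Most members moved together from library to library. After each gene was centred on its mean over the 6 libraries, the median member stood at 0.10, 0.03 and -0.21 (log2) in Scramble 1 to 3 and at 0.22, -0.12 and -0.05 in LEADR-KD 1 to 3. LEADR-KD 1 was the highest library for 55 of 77 members and Scramble 3 the lowest for 59. Ribosomal protein genes took 5.06%, 5.27% and 4.65% of all counts in Scramble and 5.41%, 4.72% and 4.96% in LEADR-KD, which gave 4.99% ± 0.315 and 5.03% ± 0.348 (SD, n = 3), a difference smaller than either SD. With mitochondrial genes left out of the total the shares were 5.36% ± 0.498 and 5.43% ± 0.557. LEADR-KD 1 and Scramble 3 also had the second highest and the lowest mitochondrial share, and the part of that share in the shift was not tested. Without Scramble 3 the median log2 fold change was -0.02 for the small and -0.04 for the large subunit, and without LEADR-KD 1 it was -0.04 and -0.06, so the sign of these medians rested on single libraries.

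**Figure D3:**
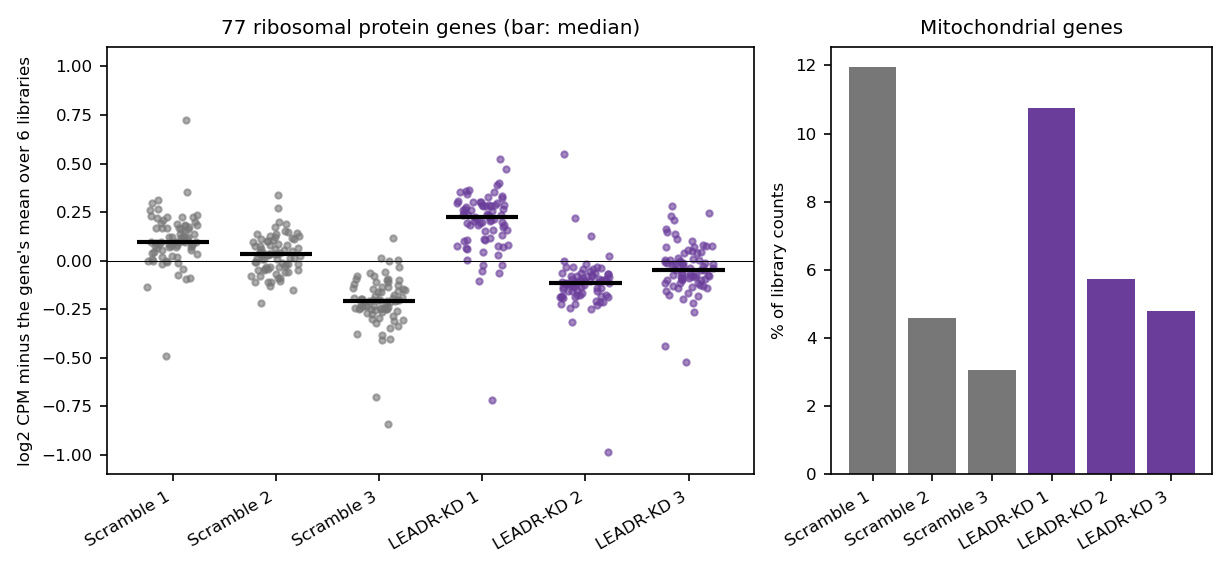
Left, log2 CPM of each of the 77 ribosomal protein genes minus its own mean over the 6 libraries, with a bar for the median of each library. Right, the mitochondrial share of the counts. The medians spread from -0.21 in Scramble 3 to 0.22 in LEADR-KD 1 and do not separate the groups. 1 point lies beyond the axis and is not drawn.

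The proportion of small to large subunit transcripts was nearly constant. Summed small subunit counts per summed large subunit count were 0.561, 0.551 and 0.557 in Scramble and 0.569, 0.563 and 0.563 in LEADR-KD. With counts every LEADR-KD library lay above every Scramble library, but the step was slight (0.557 ± 0.00524 and 0.565 ± 0.00338, SD, n = 3). With sums of FPKM the groups overlapped. There the log2 ratio of LEADR-KD 3 (-0.5217) lay below those of Scramble 1 (-0.5211) and Scramble 3 (-0.5199). On the log2 scale the difference of the group means was 0.02 with counts and 0.01 with sums of FPKM, and 0.01 to 0.03 when 1 library was left out. With 3 libraries a group an exact two-sided permutation test cannot give less than 0.10, so none was run.

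The siRNA was compared with the members because its strands can also pair with other mRNAs through bases 2 to 8, the seed, shown in capitals. The strand listed by the submitters and its reverse complement read
listed strand: aACUGGGUgcuuuauauagga
reverse complement: uCCUAUAUaaagcacccaguu
The listed strand was found in sense in 13 of 17 annotated *MIR205HG* transcripts, over a junction of exons that starts at chr1:209602734 and ends at 209603770, 209605088 or 209605549 by the second exon used (hg19, plus strand), so it is the reverse complement that pairs with *LEADR*. A match to its seed, ATATAGG, was present in an annotated 3′ UTR of 5 of 76 members (6.58%: *RPL14*, *RPL27A*, *RPL32*, *RPS29* and *RPS6*) and of 9.31% of 12114 tested genes. A match to the seed of the listed strand, ACCCAGT, was present in 5 members (6.58%: *RPL10*, *RPL29*, *RPS14*, *RPS19* and *RPS27A*) and in 14.2% of tested genes. The longest annotated 3′ UTR had a median of 525 bases in the members and 1535 bases in tested genes, which bears on these shares. *RPL15* and *RPL23A* had neither ATATAGG nor ACCCAGT, and *RPL10* had ACCCAGT in 1 of 9 coding transcripts. A shorter match of the reverse complement, TATAGG, was present in 1 of 14 coding transcripts of *RPL15*, as was TATAGGA. *RPL23A* and *RPL10* had neither of these shorter forms. TATAGG was present in 14.5% of the members and 27.2% of tested genes. A match is a description, not evidence of pairing.

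Close relatives of the members were read in the same fit, where 24.4% of all tested genes were called. The list of ribosomal proteins outside the naming pattern held 3 genes, of which none passed. *FAU* and *GNB2L1* (RACK1) had log2 differences of 0.18 (SE 0.09) and 0.04 (SE 0.16). *FAU*, which encodes a fusion with a ubiquitin-like protein, was above Scramble in every LEADR-KD library. Of 21 further TOP mRNAs, which encode elongation factors and other translation proteins, 19 were tested and none passed in edgeR's test, with a median of 0.06 and 0 to 2 called over the alternatives.

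Of the 9 paralogs 7 were tested and none passed, where 24.4% of all tested genes were called. *RPL22L1*, the paralog of *RPL22*, had 67.9, 70.7 and 67.6 CPM in Scramble and 78.8, 78.7 and 84.7 CPM in LEADR-KD, a difference of 0.23 (SE 0.08, adjusted p = 0.0584 by edgeR) with no overlap. *RPL39L*, a paralog known from the testis, had 1.47, 1.59 and 0.955 CPM against 3.45, 1.76 and 2.83 CPM, a difference of 0.99 (SE 0.35, adjusted p = 0.0636 by edgeR). Each passed under 4 of 17 alternatives. *RPL26L1* (0.03), *RPL36AL* (-0.16), *RPL7L1* (-0.03) and *RPS27L* (-0.01) had smaller differences on the log2 scale.

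The assembly of ribosomes needs many factors that are not part of the finished particle. Of 51 such biogenesis factors 14 rose and 2 fell, where 24.4% of all tested genes were called, with a median log2 fold change of 0.11. The number that rose was 7 with library totals alone and 8 to 12 when 1 library was left out. *SBDS*, which frees new large subunits for translation, rose from 39.3 ± 6.80 to 64.1 ± 7.09 CPM (log2 fold change 0.71, SE 0.13, adjusted p = 0.00260 by edgeR). *NIP7*, which acts in ribosomal RNA processing, rose from 33.2 ± 3.92 to 52.9 ± 5.63 CPM (0.67), and *NMD3*, the export adaptor released when the *RPL10* product is loaded, from 140 ± 9.50 to 216 ± 27.4 CPM (0.62). The pair that fell, *GAR1* (-0.63) and *DKC1* (-0.34), encode parts of the same snoRNP that makes pseudouridine. The *DKC1* call ended on omission of Scramble 2 or 3 or of LEADR-KD 1 or 2 (adjusted p 0.0792 to 0.132 by edgeR) and with library totals alone.

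Of 12 chaperones and importers of ribosomal proteins 3 rose and 2 fell, where 24.4% of all tested genes were called. *TNPO1*, *IPO7* and *KPNB1*, which encode import receptors with many cargoes, rose by 0.70 (SE 0.08), 0.44 (SE 0.09) and 0.30 (SE 0.08) on the log2 scale. *GRWD1*, a chaperone of the *RPL3* product, fell by 0.66 (SE 0.09), and *BCCIP*, a chaperone of the *RPL23* product, fell by 0.36 (SE 0.10). The *KPNB1* call ended on omission of Scramble 2 or 3 or of LEADR-KD 2 or 3 (adjusted p 0.0532 to 0.0964 by edgeR), and that of *BCCIP* on omission of Scramble 2 or 3 or of LEADR-KD 2 (0.0662 to 0.0975). *RPL3* itself and *RPL23* did not pass.

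**Figure D4:**
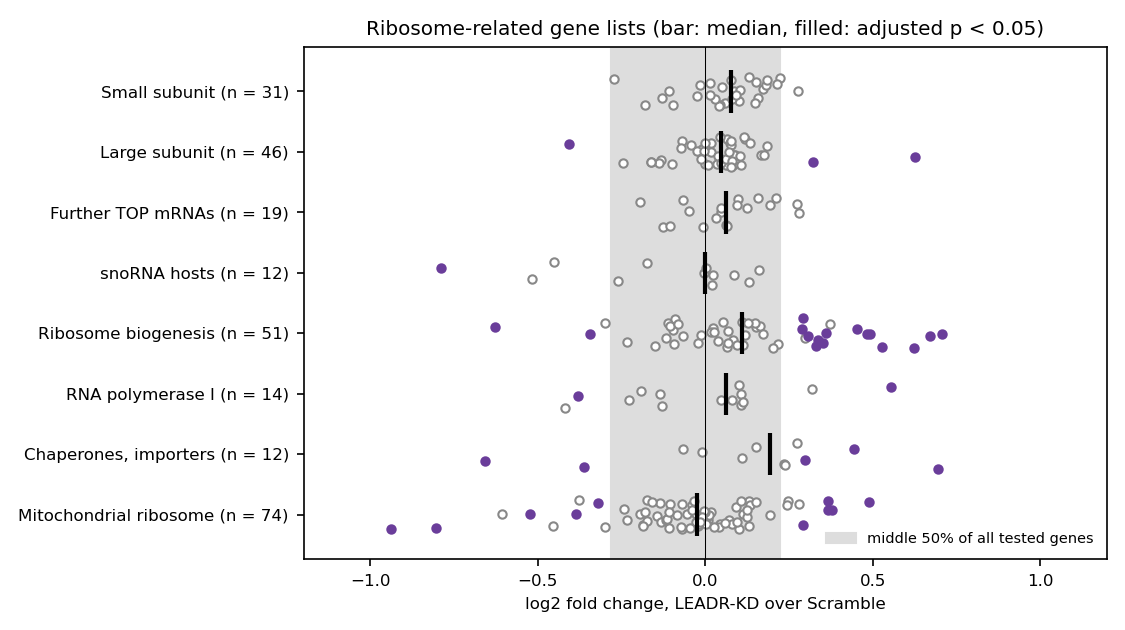
Log2 fold change of LEADR-KD over Scramble for the genes of 8 lists, where filled points passed edgeR's test, bars mark the list medians and grey shows the middle 50% of all tested genes (-0.28 to 0.22). Nearly all small and large subunit genes lie in the grey band. The biogenesis factors, importers and mitochondrial ribosomal protein genes have members beyond it on both sides, as do 50% of all tested genes. The middle 50% of the mitochondrial list ran from -0.14 to 0.09. 1 point lies beyond the axis and is not drawn.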

How the data were processed

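The authors deposited raw counts per gene, FPKM values and a table of their own comparison (log2 fold changes and p-values), which was not used. For the deposited counts, the notes of the submitters list HISAT2 2.0.5, then featureCounts 1.5.0-p3, with hg19 as the build, whereas Salmon is named in the study's methods. Use of strand in counting was not given in the sources used here, and reads of opposite-strand neighbours may therefore be mixed (33 members have such a neighbour). The deposited FPKM values equal count over gene length times 1 constant per library (tolerance 0.001). Reads were not processed again.

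Genes were kept by filterByExpr (minimum count 10), leaving 14178 of the 25957 with any count, and fitted on all 6 libraries with TMM scaling and edgeR 4.0.16's quasi-likelihood test in R 4.3.3, without covariates. A gene rose or fell at a Benjamini-Hochberg adjusted p under 0.05 over all tested genes. The SE is the size of the log2 fold change over the square root of F, and intervals use the test's degrees of freedom. The biological coefficient of variation was 12.6%. The steps were tested on simulated counts.

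Alternatives were DESeq2 1.42.0, limma 3.58.1 on log2(FPKM + 1) and log2(FPKM + 0.1), other scalings and filters, the replicate number as a block and libraries left out. The members and lists, written from general knowledge, were chosen with earlier results of these data known. Lists covered ribosomal proteins outside the naming pattern, paralogs, further TOP mRNAs, snoRNA hosts, biogenesis factors, RNA polymerase I, chaperones and importers, mitochondrial ribosomal proteins, quality control factors, pseudogenes and cell markers. Genes were named if they were members past the threshold, the 4 highest or 3 lowest in FPKM of a subunit, under a mean count of 100 or of known further role, or up to 3 per direction of another list, with all tested paralogs. The remaining called genes of the mitochondrial ribosomal protein list were named as well. Start windows and UTRs came from RefSeq (GRCh38.p14) and GENCODE (GRCh37). Some genes are not reported here by name, in the text or in the plots with gene names, and stay in the counts.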

Additional observations from a re-analysis of the deposited data

How the results depend on the processing

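Counts of ribosomal protein genes called were small and moved with the setting. Against 2 higher and 2 lower, library totals alone gave 1 and 4, DESeq2 gave 3 and 1 (with 1 member called by edgeR left without an adjusted p), limma on FPKM with either pseudocount gave 2 and 1, leaving out both libraries numbered 1 gave 1 and 4, and leaving out 1 library gave 1 (1 to 1) higher and 0 to 3 lower. The count lower was 0 without Scramble 2 and without LEADR-KD 2. Scaling to the summed ribosomal protein counts, chosen after seeing the data, gave 1 and 2. The causes were not tested. Over all genes, the number higher was 1085 with library totals alone against 1736 (1188 to 1457 with 1 library left out), and the number lower was 1142 to 1472 with 1 library left out against 1719. The median of the small subunit genes ran from -0.04 to 0.15 and of the large from -0.06 to 0.11 over those omissions, the share difference from -0.15 to 0.19 percentage points and the log2 small to large ratio from 0.01 to 0.03. For the named genes whose calls were followed over the alternatives, no alternative changed a called direction. Same-numbered libraries correlated at 0.23, 0.00 and 0.27 in their deviations. With 3 libraries a group, these values do not decide whether the numbers mark pairs. Over all genes, the replicate number as a block gave 2489 higher and 2365 lower. The fit with the replicate block gave 4 higher (*RPL10*, *RPL23A*, *RPS21* and *RPSA*) and 4 lower (*RPL15*, *RPL9* and *RPS25* among them). Counts below 100 limit *RPS10* and *RPL36A*, whose intervals reach beyond 0.5 on the log2 scale.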

Other observations

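Ribosomal protein pseudogenes give a view of reads that copies may share with the members. Of 855 such genes listed, 222 had any count and 45 were tested, and none rose and 1 fell, with a median log2 fold change of -0.08. Of all tested genes 24.4% were called. The gene that fell, named after its values were seen, was *RPL15P3*, at 62.2 ± 9.22 CPM in Scramble and 44.4 ± 5.30 CPM in LEADR-KD (log2 fold change -0.49, SE 0.12, adjusted p = 0.0154 by edgeR), beside -0.41 for its parent *RPL15*. The number of pseudogenes that fell was 0 without LEADR-KD 2. Reads of the copy and of the parent may not have been told apart, which was not tested. Summed pseudogene counts per 100 ribosomal protein counts were 2.72 ± 0.00182 in Scramble and 2.68 ± 0.0513 in LEADR-KD (SD, n = 3).

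Other parts of the translation machinery were read in the same fit. Of 74 tested mitochondrial ribosomal protein genes, which serve the separate ribosome of mitochondria, 5 rose and 5 fell with a median of -0.02. Among all tested genes 12.2% rose and 12.1% fell. When 1 library was left out, 2 to 5 of the mitochondrial list rose and 3 to 5 fell. *MRPL19* (0.49), *MRPS9* (0.38) and *MRPS10* (0.37) rose most on the log2 scale, and *MRPL34* (-0.94), *MRPS14* (-0.80) and *MRPS27* (-0.52) fell most. *MRPL9* and *MRPL17* also rose (adjusted p 0.0202 and 0.0456 by edgeR), and *MRPS22* and *MRPS21* also fell (0.0268 and 0.0444). They complete the called genes of this list, and their calls were not followed 1 by 1 over the alternatives. The *MRPS9* call ended on omission of Scramble 1 or 2 or of LEADR-KD 1 or 3 (adjusted p 0.0597 to 0.0951 by edgeR).

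Of 14 quality control and ribosome-associated factors 2 rose and 2 fell. Beside this list and those below, 24.4% of all tested genes were called. *NEMF*, which finds stalled chains on large subunits, fell from 93.4 ± 10.9 to 54.9 ± 5.76 CPM (-0.77), and *LTN1*, the ubiquitin ligase it recruits, from 88.5 ± 5.15 to 68.4 ± 3.47 CPM (-0.37). *ASCC3*, a helicase that splits collided ribosomes, rose by 0.47 and lost its call without Scramble 2 (adjusted p 0.0505 by edgeR), and *SERBP1*, which binds idle ribosomes, rose by 0.34 and kept its call only without LEADR-KD 2 when 1 library was left out (0.0518 to 0.109 otherwise). Of 14 RNA polymerase I genes *TAF1A* rose (0.55, not called on omission of Scramble 2 or 3 or of LEADR-KD 1 or 3, at 0.0533 to 0.0844 by edgeR) and *POLR1D* fell (-0.38). Of 12 snoRNA hosts *SNHG16* fell from 37.1 ± 1.87 to 21.5 ± 2.96 CPM (-0.79, adjusted p = 7.83e-04 by edgeR). Among urothelial markers *UPK1B* (0.76) and *KRT18* (0.39) rose, and *ELF3* (-0.51) and *FOXA1* (-0.30) fell. The *KRT18* call ended on omission of Scramble 2 or 3 or of LEADR-KD 1 or 3 (adjusted p 0.0720 to 0.105 by edgeR), and that of *FOXA1* on omission of Scramble 2 or of LEADR-KD 1 or 3 (0.0584 to 0.0970).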
